A study of Homo sapiens with 10 samples.

Results

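The mitochondrial ribosomal proteins were followed in 2 human glioblastoma cell lines, DBTRG-05MG and U87, during exposure to dibutyryl cAMP (dbcAMP), a membrane-permeable analogue of cyclic AMP. The genes were chosen by name, as every symbol of the deposited expression table that reads MRPL or MRPS followed by a number and an optional letter A to C, which gave 76 of 20379 symbols, 47 of them MRPL and 29 MRPS. Each line was sampled at 0, 6, 12, 24 and 48 h of 1 mM dbcAMP, per the sample labels, so that the 10 libraries hold 1 library of each line at each time and no replicate. The 0 h libraries carry the same dose label as the others and are read here as the start of each series. There is 1 cell line on each side, so a difference between the lines compares these libraries and not 2 classes of tumour. Values are FPKM (fragments scaled to transcript length and to library size), so levels are given per length.

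Mitoribosomes translate the few messages of mitochondrial DNA, which encode core subunits of the respiratory chain and ATP synthase. Their RNA comes from mitochondrial DNA, but every protein of the particle is encoded in the nucleus, made in the cytosol and imported. Part of the proteins descend from bacterial ribosomal proteins, and the rest are particular to mitochondria. Some names no longer fit the structure: MRPS30 and MRPS18A are named for the small subunit and sit in the large one, and MRPS36, now called KGD4, is a part of the 2-oxoglutarate dehydrogenase complex. MRPL57 and MRPL58 are listed in the table under their older symbols MRP63 and ICT1 and were therefore counted among related genes.

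As read from the spacing of low values, the relative depth of the libraries was no more than 117% of the shallowest, DBTRG-05MG at 0 h. That reading compares only values near the lowest of each gene, so it could not show a large gap in depth. Genes listed at 0 numbered 3047 to 3555 across DBTRG-05MG libraries and 4446 to 5106 across U87 libraries. Of the markers examined, VIM and CD44 were abundant in both lines. GFAP stayed at or below 0.508 FPKM across DBTRG-05MG and 0.254 FPKM in U87. SOX2 was at 23.0 to 36.6 FPKM across DBTRG-05MG and was listed at 0 in all U87 libraries. The leukocyte and endothelial genes PTPRC and PECAM1 did not exceed 0.039 FPKM in either line. The small noncoding RNA BCYRN1 took 0.578 to 3.37% of all FPKM across DBTRG-05MG and 7.38 to 13.3% in U87. Its part in the differences between the lines was not tested beyond the shares given below.

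Of the 76 members, 75 averaged at least 1 FPKM over the 10 libraries and entered the tests, among 12352 genes. The median of their mean levels was 34.5 FPKM, against 9.31 FPKM over all genes tested, and 63 members stayed above 10 FPKM in every library. MRPL37 (mean 107 FPKM), MRPL12 (104 FPKM) and MRPL51 (103 FPKM) were the highest. MRPS18C (4.61 FPKM), MRPL1 (5.52 FPKM) and MRPS18B were the lowest of those tested. MRPS24, the member left out, reached at most 0.158 FPKM across DBTRG-05MG and 0.588 FPKM in U87, and its exons overlap those of the annotated read-through gene URGCP-MRPS24 over 606 bases. The order of the members was similar in the lines: the mean log2 levels had a Pearson r of 0.85 across 75 genes, against 0.78 across all 12352 genes tested, where genes share the libraries and are not independent.

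The upstream sequences of 5 members are shown because MRPL12 and MRPL39 carry the time courses described below, MRPL34 and MRPS34 are among the members that differed between the lines, and MRPS18A, MRPS34 and MRPL34 show the motifs most often linked to this class of genes. RefSeq (GRCh38.p14) start-site windows, from 250 bases before to 50 after a start, were matched by symbol or older symbol for 68 of 76 members, giving 84 windows. Printed are the stretches before the start that no annotated exon covers, 5′ to 3′ on the strand of the gene, with the ETS family core (CCGGAAG or CTTCCGG) or the NRF1 motif (a pair of GCGC parted by an A and any base, or on the other strand by any base and a T) in capitals. They lie at chr17:81703301-81703356 (+ strand, MRPL12), chr21:25607518-25607731 (- strand, MRPL39), chr19:17305403-17305652 (+ strand, MRPL34), chr16:1773156-1773206 (- strand, MRPS34) and chr6:43687792-43688041 (- strand, MRPS18A). Where a member had several windows, a stretch with a motif in capitals was printed ahead of one without. MRPL34 also has start windows that hold neither motif, among them chr19:17292323-17292622.
MRPL12: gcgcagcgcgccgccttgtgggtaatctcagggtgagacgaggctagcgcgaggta
MRPL39: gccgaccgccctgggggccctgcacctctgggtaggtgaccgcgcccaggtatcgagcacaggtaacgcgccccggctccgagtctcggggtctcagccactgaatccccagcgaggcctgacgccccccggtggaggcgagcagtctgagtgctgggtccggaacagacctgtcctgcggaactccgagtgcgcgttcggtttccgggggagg
MRPL34: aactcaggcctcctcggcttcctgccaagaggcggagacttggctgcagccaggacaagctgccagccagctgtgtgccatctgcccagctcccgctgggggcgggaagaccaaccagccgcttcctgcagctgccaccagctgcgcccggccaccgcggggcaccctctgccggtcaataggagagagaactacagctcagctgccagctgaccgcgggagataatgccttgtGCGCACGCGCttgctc
MRPS34: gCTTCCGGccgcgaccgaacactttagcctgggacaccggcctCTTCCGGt
MRPS18A: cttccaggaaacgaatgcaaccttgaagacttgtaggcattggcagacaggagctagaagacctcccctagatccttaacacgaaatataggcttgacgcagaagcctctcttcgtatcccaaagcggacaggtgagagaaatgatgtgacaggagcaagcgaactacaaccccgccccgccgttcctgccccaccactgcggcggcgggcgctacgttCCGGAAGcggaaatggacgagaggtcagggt

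The ETS family core was found, on either strand, in 32 of 84 member windows (38.1%), against 16.7% of the 13301 windows of genes tested and 10.3% of all 35116 windows. ETS family factors such as GABPA (NRF2) are known activators of nuclear genes for mitochondrial proteins. The YY1 motif (ATGGCGG or CCGCCAT) was in 28.6% of member windows, against 9.27% of windows of genes tested and 5.55% of all windows. Of the 24 member windows with it, 19 held it in the 50 bases after the start. The NRF1 motif was in 10.7% of member windows, close to the 9.81% of genes tested. The cyclic AMP response element (TGACGTCA, which reads the same on both strands) was in 1 member window (1.19%), against 2.89% of windows of genes tested. The E-box (CACGTG) was in 11.9% against 9.32%, and TATAAA or TTTATA in 4.76% against 6.15%. No motif contains another, and a match describes the letters and shows no binding.

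In DBTRG-05MG the summed level of the 76 members was 3192, 3369, 3187, 3040 and 3023 FPKM at 0, 6, 12, 24 and 48 h, and in U87 it was 3054, 3217, 2914, 2512 and 2499 FPKM. Both lines were highest at 6 h and lowest at 48 h, with a wider range in U87. As a share of all FPKM the members made up 0.775, 0.807, 0.781, 0.750 and 0.715% of the DBTRG-05MG libraries, and 0.645, 0.672, 0.599, 0.546 and 0.513% of the U87 libraries. In bulk RNA, fewer cells with a transcript and less of it per cell cannot be told apart. Every DBTRG-05MG share was above every U87 share. With BCYRN1 left out of the total, the shares overlapped, at 0.726 to 0.833% in DBTRG-05MG and 0.554 to 0.748% in U87. The symbols named MRPS summed to 956, 972, 1005, 939 and 997 FPKM across DBTRG-05MG, and across U87 to 886, 970, 836, 681 and 708 FPKM.

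Whether the members changed with time of dbcAMP was asked over both lines at once, each later time against 0 h (limma on log2(FPKM + 1), with line and time in the model). No member passed an adjusted p of 0.05 at 6, 12, 24 or 48 h. Across all genes the same test called 0.0081% at 6 h, 0.0081% at 12 h, 0.0081% at 24 h and 0.0% at 48 h, and the members' count of 0 is read against those shares. At an unadjusted p under 0.05, 3 members were higher at 6 h (background 1.98%), none passed at 12 h (4.47% in either direction) or 24 h (3.51%), and at 48 h 1 was higher (3.71%) and 7 were lower (8.53%). A common trend over the ordered times likewise called no member (background 0.0%), with 12 of 75 lower and 0 higher at an unadjusted p under 0.05, against 10.3% and 4.86% of all genes. The median fitted change of the members at 48 h was -0.15 on the log2 scale and that of all genes was -0.07. These medians depend on the scaling: they were -0.02 for the members and 0.07 for all genes with median centring, and -0.06 and 0.0052 with upper quartile scaling.

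By line, the median log2 change of the 75 members against 0 h was 0.07, 0.14, 0.06 and -0.0037 at 6, 12, 24 and 48 h in DBTRG-05MG, where all genes had -0.07, 0.0002, 0.05 and 0.02. In U87 it was 0.08, -0.09, -0.32 and -0.29, where all genes had -0.01, -0.04, -0.15 and -0.15. The members thus lay near 0 at the last time in DBTRG-05MG and below the table in U87. At 48 h, 33 members were lower than at 0 h in both lines (44.0%, against 36.0% of all genes) and 7 were higher in both (9.33%, against 23.6%). In 35 members the lines went opposite ways (background 38.2%). Of these, 30 were higher in DBTRG-05MG and lower in U87 (40.0% of members, against 27.3% of all genes). The other 5 were lower in DBTRG-05MG and higher in U87 (6.67%, against 10.9%). Across the 75 members the 48 h changes of the lines had a Pearson r of 0.34, close to the 0.36 across all genes.

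**Figure D1:**
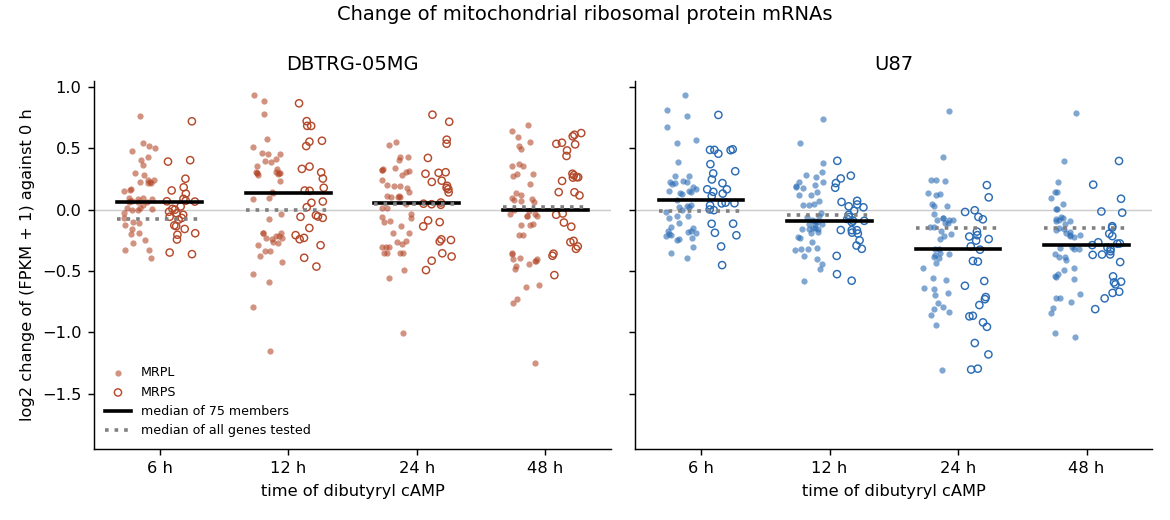
Log2 change of (FPKM + 1) against the 0 h library of the same line, for the 75 members tested, at 4 later times in DBTRG-05MG (left) and U87 (right); filled points are MRPL and open circles MRPS symbols, black bars the members' median and dotted bars the median of all genes tested. The members' medians stay between -0.0037 and 0.14 in DBTRG-05MG and reach -0.32 at 24 h and -0.29 at 48 h in U87.

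**Figure D2:**
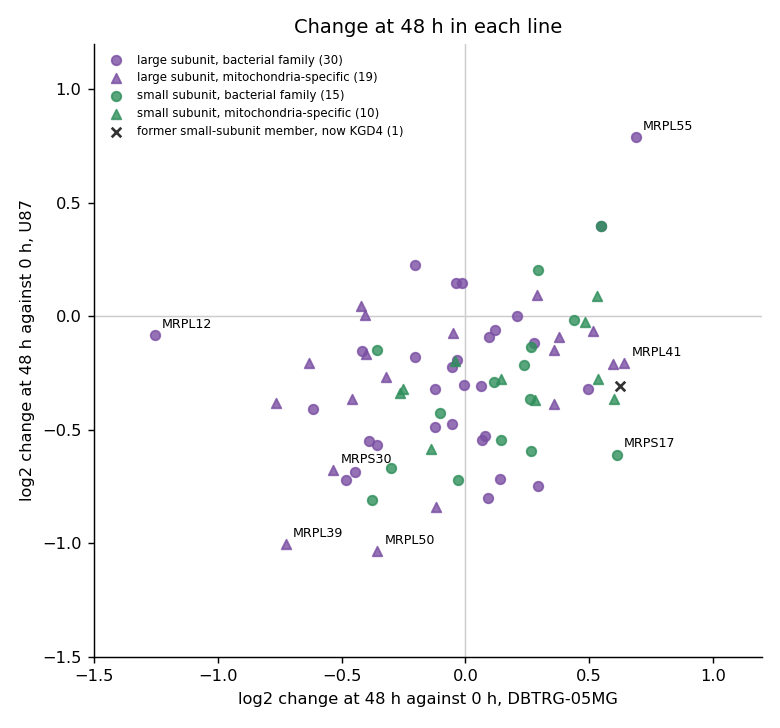
Log2 change at 48 h against 0 h in DBTRG-05MG (horizontal axis) and in U87 (vertical axis) for each of the 75 members, by subunit and by whether the protein was classed as having a bacterial counterpart. MRPL12 lies apart at the left, lower in DBTRG-05MG and near 0 in U87, MRPL39 and MRPL50 lie lowest, and MRPL55 is high in both lines.

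MRPL12, a protein of the ribosomal stalk that also binds the mitochondrial RNA polymerase (chr17:81703357-81707526, + strand, GRCh38), was the member furthest from its 0 h level in DBTRG-05MG at 12, 24 and 48 h. Its level there was 232, 202, 104, 115 and 96.5 FPKM at 0, 6, 12, 24 and 48 h, and in U87 it was 61.6, 54.2, 56.7, 58.6 and 58.1 FPKM. The DBTRG-05MG level was high at 0 and 6 h and lower from 12 h on, while U87 held within a narrow range, and every DBTRG-05MG library was above every U87 library. MRPL12 was the only member at least 2-fold lower than at 0 h in DBTRG-05MG at 12, 24 or 48 h, where 1.61, 1.6 and 5.16% of all genes were. At 48 h its level was 0.417 of the 0 h level in DBTRG-05MG and 0.944 in U87. The median GC content of its coding transcripts is 64.6%. Across the 75 members, changes in DBTRG-05MG had a Spearman rho with GC content of -0.33 at 12 h, -0.40 at 24 h and -0.18 at 48 h. All genes with a value had -0.34, -0.21 and -0.04. The part of GC content in the time course of MRPL12 was not tested. MRPL12 also shares 701 exonic bases on the same strand with the annotated gene AC139530.2, a symbol not in the table. How reads of the shared bases were divided was not tested. The difference between the lines in trend was -0.33 ± 0.10 log2 per step of time (SE), the lowest p of any member for this comparison, and it did not pass over all genes (limma adjusted p = 0.272, between 0.141 and 0.581 over the alternatives).

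MRPL39, a large-subunit protein particular to mitochondria (chr21:25585656-25607517, - strand), had 39.9, 41.1, 42.7, 31.0 and 23.7 FPKM over the 5 times in DBTRG-05MG and 30.9, 29.5, 27.6, 23.6 and 14.9 FPKM in U87. The 48 h library was the lowest in both lines, at 0.595 and 0.483 of the 0 h level. The fitted change at 48 h was -0.86 ± 0.20 (SE) with a limma adjusted p of 0.158, and the common trend was -0.21 ± 0.05 log2 per step with an adjusted p of 0.147. With hours in place of the order of the times, MRPL39 was the 1 member called (limma adjusted p = 0.0255), in a fit that called 2.04% of all genes. That was the lowest value over the settings tried, where the limma adjusted p of its common trend reached 0.901.

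MRPS30, a large-subunit protein despite its name, also ended lowest in both lines, with 49.9, 50.2, 35.9, 37.1 and 34.2 FPKM across DBTRG-05MG and 29.8, 32.8, 28.0, 26.2 and 18.3 FPKM in U87. MRPL50, particular to mitochondria, was at 38.6, 40.7, 33.1, 44.6 and 29.99 FPKM across DBTRG-05MG and 41.4, 48.2, 38.7, 37.4 and 19.7 FPKM in U87. MRPL9, the counterpart of bacterial L9, had 33.9, 34.3, 28.6, 27.3 and 24.0 FPKM across DBTRG-05MG and 32.1, 27.2, 25.7, 30.2 and 19.1 FPKM in U87. In each of these genes the 48 h library had the lowest value of its line. Their fitted changes at 48 h were -0.61 for MRPS30, -0.70 for MRPL50 and -0.60 for MRPL9, with limma adjusted p-values of 0.303, 0.319 and 0.306.

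The members with the highest mean change at 48 h were MRPL55, MRPL33, MRPS18C, MRPS33 and MRPS14. MRPL55, the counterpart of bacterial L31, had 16.05, 16.8, 23.2, 19.8 and 26.5 FPKM across DBTRG-05MG and 17.2, 19.5, 18.8, 10.7 and 30.5 FPKM in U87. It was highest at 48 h in both lines and lowest at 24 h in U87, and its fitted change at 48 h of 0.74 ± 0.29 (SE) did not pass (limma adjusted p = 0.347). MRPL33 had 33.9, 50.01, 63.7, 46.2 and 50.1 FPKM across DBTRG-05MG and 44.2, 75.8, 52.0, 34.1 and 58.6 FPKM in U87. Its highest value came at 12 h in DBTRG-05MG and at 6 h in U87. The fitted changes of MRPL33, MRPS18C, MRPS33 and MRPS14 at 48 h were between 0.25 and 0.47, with limma adjusted p-values of 0.472 to 0.724.

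**Figure D3:**
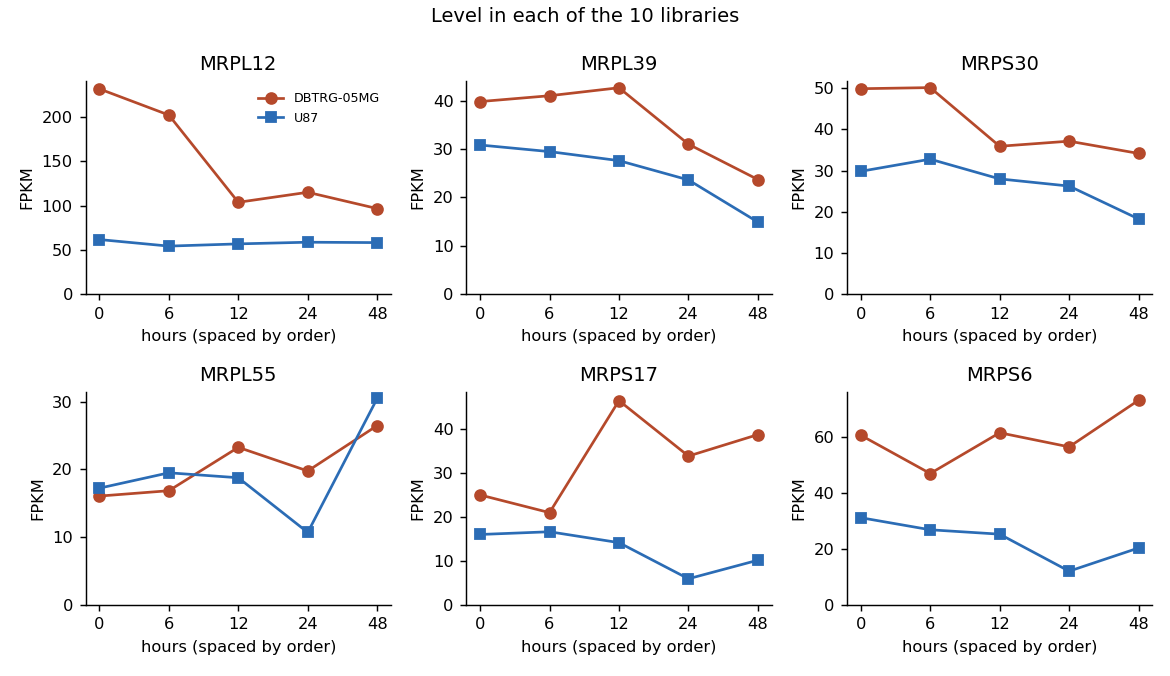
FPKM of 6 members in each of the 10 libraries, against time of dbcAMP in hours with the times evenly spaced; circles are DBTRG-05MG and squares U87, 1 library a point. In DBTRG-05MG, MRPL12 stands at 202 FPKM at 6 h and 104 FPKM at 12 h, MRPL39 and MRPS30 end lowest in both lines, and MRPL55, MRPS17 and MRPS6 dip at 24 h in U87.

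The 24 h library of U87 stood apart for many members. It held the lowest U87 value for 37 of 75 (49.3%, against 30.1% of all genes). This library was below 0 h for 62 of 75 members, where 7767 of 12352 genes were below with a median change of -0.15. In it 23 members were at least 1.5-fold lower than at 0 h (30.7%, background 18.4%) and 5 at least 2-fold lower (background 4.5%), both on the scale of FPKM + 1: MRPL13, MRPS6, MRPS17, MRPS28 and MRPS36. By FPKM alone MRPL19 (3.21 FPKM at 24 h, 7.08 FPKM at 0 h) and MRPS25 (2.65 and 6.08 FPKM) were past 2-fold as well. Of the 28 tested MRPS symbols 26 were below 0 h there, with a median change of -0.42, and of the 47 MRPL symbols 36 were, with a median of -0.21. That library held the highest U87 value for 6 members, MRPL49 and MRPL37 among them, with 41.7 FPKM for MRPL49, whose other U87 values were 17.8 to 28.8 FPKM, and 195 FPKM for MRPL37, whose other U87 values were 125 to 144 FPKM. Exons of MRPL49 overlap those of FAU over 282 bases on the opposite strand, and FAU was at 243 to 437 FPKM in U87. The part of this overlap in the MRPL49 values was not tested.

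Several other measures moved in the same library. MKI67, a marker of cycling cells, was at 53.7, 38.2, 21.1, 57.4 and 12.3 FPKM over the U87 series, so that its 24 h value broke the decline. It was 1 of 3 of the 12 cell division genes above 0 h in that library: the other 9 were below, and the list's median change in U87 was -0.62 at 12 h, -0.37 at 24 h and -1.21 at 48 h. The 77 cytosolic ribosomal protein genes tested had a median change of -0.51 there, and 0.13 at 48 h. The members' changes at 24 h in U87 had a Spearman rho of 0.29 with the GC content of their transcripts, across 75 genes, and all genes with a value had 0.37. The part of these measures in the members' values was not tested, and with 1 library at this time the library and the time cannot be told apart.

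The lines were also compared in their trends, as DBTRG-05MG minus U87 per step of time. No member was called, against 0.0162% of all genes. At an unadjusted p under 0.05, 13 members had the higher trend in DBTRG-05MG (17.3%, background 10.3%) and 1, MRPL12, the lower (background 3.1%). In 3 members (4.00%, background 3.24%) every later DBTRG-05MG library was above 0 h and every later U87 library below it. The median trend difference was 0.12 for the members, 0.16 for the 28 MRPS symbols and 0.08 for the 47 MRPL symbols, against 0.06 for all genes. With median centring it was 0.04 for the members and -0.02 for all genes. The largest was that of MRPS17, a small-subunit protein with a bacterial counterpart, at 0.45 ± 0.16 (SE, limma adjusted p = 0.306). MRPS17 had 25.05, 21.0, 46.6, 33.9 and 38.8 FPKM across DBTRG-05MG and 16.03, 16.7, 14.2, 5.94 and 10.2 FPKM in U87. It was above its start from 12 h on in DBTRG-05MG and below it over the same times in U87. MRPS36 (KGD4), MRPS23, MRPS35, MRPS6 and MRPL41 followed, with trend differences of 0.30 to 0.40 and limma adjusted p-values of 0.313 to 0.352. In MRPS17 and each of these, the U87 value at 24 h lay -0.65 to -0.95 log2 from the mean of 12 and 48 h. The part of that single library in these trend differences, and in the MRPS and MRPL medians, was not tested. MRPL41, a mitochondria-specific protein of the large subunit, had 63.6, 56.9, 83.8, 79.1 and 99.8 FPKM across DBTRG-05MG and 71.3, 72.4, 62.4, 38.8 and 61.7 FPKM in U87.

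Between the lines, with the 5 times as pairs, 34 of 75 members differed in level at a limma adjusted p under 0.05 (background 55.0%, the share of all genes). Higher in DBTRG-05MG were 28 (37.3%, background 35.2%) and lower 6 (8.00%, background 19.7%). Every DBTRG-05MG library was above every U87 library for 18 members (24.0%, background 27.1%) and below for 6 (8.00%, background 13.8%). The members' median difference was 0.23 log2, and that of all genes was 0.18. These p-values measure the spread over the libraries and times of 1 line on each side, and no source names separate cultures. The split depends on the scaling: with each library centred on its median, which moves the median of all genes to -0.09, 14 members were higher and 19 lower in DBTRG-05MG, and with upper quartile scaling, which moves it to 0.05, 21 were higher and 12 lower. In both, the members' median stayed close to that of all genes, at -0.04 and 0.09.

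The calls of 20 members held in the same direction in each of 13 distinct alternatives, counting the 2 libraries of a time once since leaving out either gave the same calls, 14 higher and 6 lower in DBTRG-05MG. In the order of their differences the higher ones were MRPS6, MRPS17, MRPL12, MRPL42, MRPL32, MRPL34, MRPS26, MRPL49, MRPL15, MRPL28, MRPS34, MRPL48, MRPL44 and MRPS10, and the lower ones MRPL23, MRPL17, MRPL14, MRPL37, MRPS15 and MRPL53. They include proteins of both subunits and both origins.

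MRPS6, a small-subunit protein with a bacterial counterpart (chr21:34073224-34143034, + strand), had 60.6, 46.9, 61.5, 56.4 and 73.1 FPKM across DBTRG-05MG and 31.1, 26.8, 25.2, 12.0 and 20.3 FPKM in U87. No library of one line reached the range of the other. The difference was 1.38 ± 0.21 log2 (SE, limma adjusted p = 0.000469). MRPS6 shares 273 exonic bases on the same strand with SLC5A3, a myo-inositol transporter gene, which was at 9.69 to 20.7 FPKM across DBTRG-05MG and 1.90 to 4.95 FPKM in U87, and how reads of the shared exon were divided was not tested. MRPS17 (chr7:55951819-55956501, + strand), given above, differed by 1.35 ± 0.28 (SE, limma adjusted p = 0.00312). MRPL12 differed by 1.26 ± 0.21 (SE, limma adjusted p = 0.000836).

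MRPL42, particular to mitochondria (chr12:93467488-93516213, + strand), had 15.0, 14.7, 16.6, 20.6 and 18.5 FPKM across DBTRG-05MG and 7.48, 7.19, 6.46, 4.24 and 8.05 FPKM in U87. MRPL32, which matures by cleavage by the m-AAA protease before it joins the ribosome (chr7:42932200-42948958, + strand), had 66.2, 70.6, 70.6, 76.0 and 70.1 FPKM across DBTRG-05MG and 32.1, 37.6, 29.95, 32.8 and 22.0 FPKM in U87. In both genes every DBTRG-05MG library was well above every U87 library, by 1.25 ± 0.19 for MRPL42 and 1.19 ± 0.15 for MRPL32 (SE, limma adjusted p = 0.000462 and 0.000127). MRPL34, whose upstream sequence is printed above, had 125, 99.1, 71.5, 97.2 and 122 FPKM across DBTRG-05MG and 46.6, 51.7, 58.1, 39.5 and 40.7 FPKM in U87. Its lowest DBTRG-05MG value, at 12 h, came at the time of the highest U87 value, and the lines still did not overlap. MRPS26 differed by 1.08 ± 0.16 and MRPS34 by 0.78 ± 0.13 (SE, limma adjusted p = 0.000376 and 0.000765).

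MRPL23, a protein near the exit of the peptide tunnel (chr11:1947278-1984522, + strand), was the member lowest in DBTRG-05MG relative to U87. It had 22.3, 29.9, 43.7, 33.1 and 31.9 FPKM across DBTRG-05MG and 108, 111, 99.7, 68.9 and 86.5 FPKM in U87. The DBTRG-05MG mean was 0.339 of the U87 mean, and the difference was -1.54 ± 0.19 log2 (SE, limma adjusted p = 0.000129). MRPL17, also of bacterial type (chr11:6680782-6683401, - strand), had 25.4, 29.7, 31.2, 25.7 and 24.5 FPKM across DBTRG-05MG and 65.5, 56.3, 74.9, 60.7 and 56.1 FPKM in U87, a difference of -1.17 ± 0.13 (SE, limma adjusted p = 6.58e-05). Both genes lie on the short arm of chromosome 11 and were low in every DBTRG-05MG library.

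MRPL14, a protein of the face toward the small subunit (chr6:44113454-44127457, - strand), had 34.4, 26.0, 28.0, 32.7 and 29.7 FPKM across DBTRG-05MG and 71.7, 60.6, 57.0, 57.1 and 83.9 FPKM in U87. MRPL37, particular to mitochondria (chr1:54184041-54225464, + strand), had 82.2, 86.0, 68.3, 58.3 and 52.7 FPKM across DBTRG-05MG and 144, 128, 133, 195 and 125 FPKM in U87. Neither overlapped between the lines, and the differences were -1.10 ± 0.14 and -1.05 ± 0.18 (SE, limma adjusted p = 0.000177 and 0.000983). MRPS15 and MRPL53 were lower in DBTRG-05MG by smaller differences of -0.73 ± 0.14 and -0.65 ± 0.14 (SE, limma adjusted p = 0.00161 and 0.00321).

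**Figure D4:**
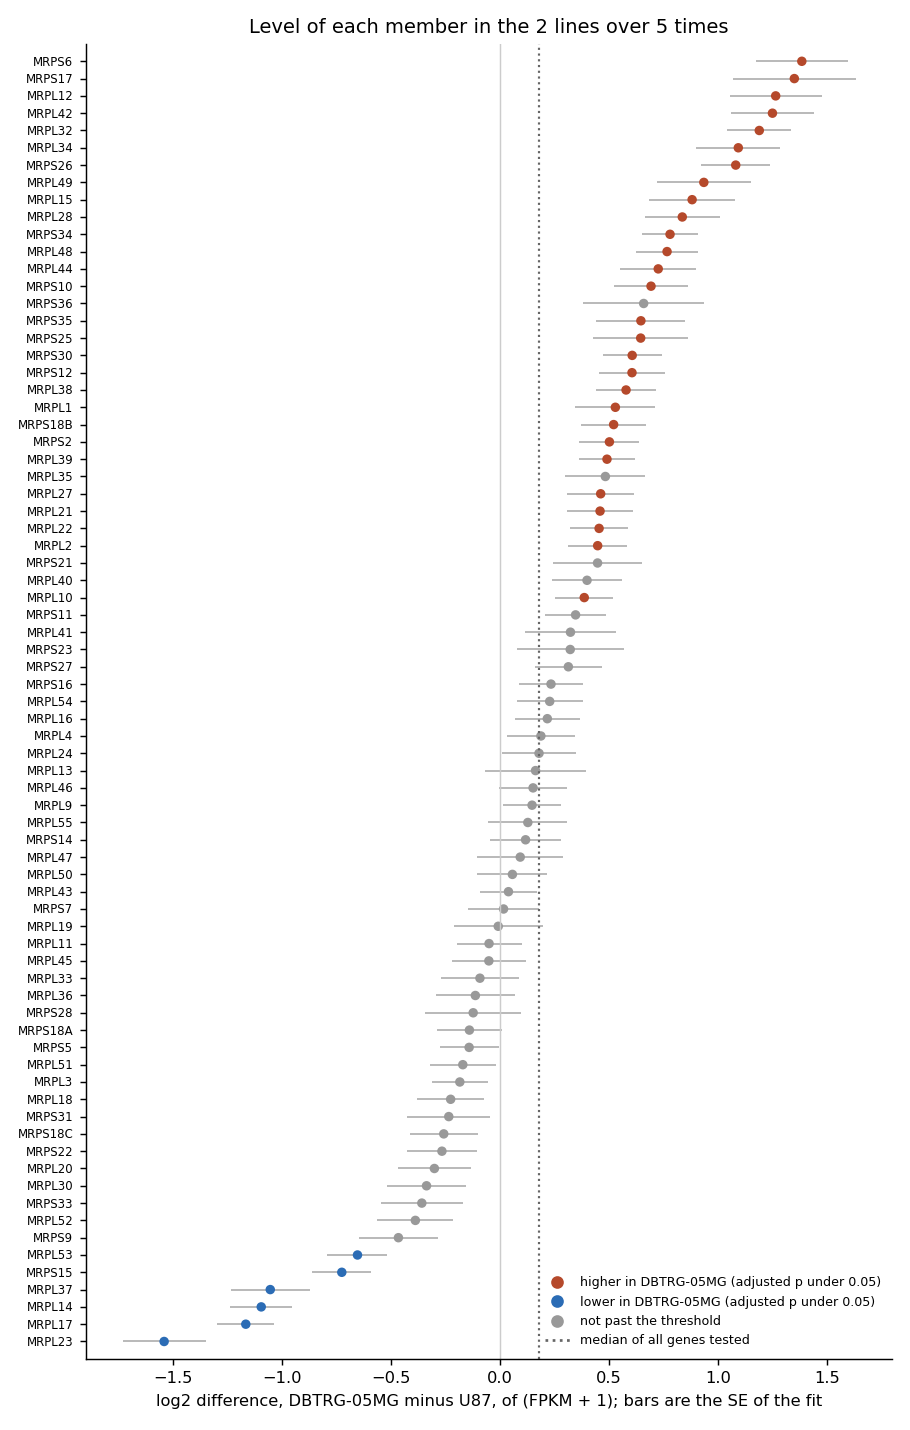
Log2 difference in level, DBTRG-05MG minus U87, of each of the 75 members over 5 times, with the standard error of the fit as bars; the dotted line is the median of all genes tested (0.18). The 28 members called higher in DBTRG-05MG reach 1.38 (MRPS6) and the 6 called lower reach -1.54 (MRPL23).

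Among the members, the differences between the lines went in part with those of neighbouring genes. The same relation was not worked out for all genes. Across the 74 members with at least 10 tested genes within 5 Mb, the member's difference and the median of its neighbours had a Pearson r of 0.49 and a Spearman rho of 0.42, where members on 1 chromosome share neighbours. The neighbours' median was -0.41 for MRPL23 and -0.56 for MRPL17, and it was 0.91 for MRPS26, 0.68 for MRPL32 and 0.67 for MRPL42. For MRPL14 it was 0.41, opposite in sign to the gene, and for MRPL34 it was 0.03. Other called members with neighbours of opposite sign included MRPL44 (0.72, neighbours -0.27), MRPS25 (0.64, neighbours -0.35) and MRPS30 (0.61, neighbours -0.13). Gene copy number was not measured here.

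The 3 MRPS18 paralogs, of which MRPS18C takes the place of bacterial S18 and MRPS18A sits in the large subunit, differed in level and in the line comparison. MRPS18A had 45.2, 45.2, 34.2, 37.6 and 36.1 FPKM across DBTRG-05MG and 39.4, 55.7, 48.0, 45.5 and 32.6 FPKM in U87. MRPS18B was at 5.88 to 6.57 FPKM across DBTRG-05MG and 2.75 to 4.80 FPKM in U87, and MRPS18C at 2.71 to 4.97 FPKM across DBTRG-05MG and 4.04 to 6.11 FPKM in U87. MRPS18B was called higher in DBTRG-05MG (0.52 ± 0.15, SE, limma adjusted p = 0.0151), but not once libraries were centred on their median. MRPS18A (-0.14) and MRPS18C (-0.26) did not pass, with limma adjusted p-values of 0.450 and 0.189, but both were called lower in DBTRG-05MG with median centring, so the calls of the 3 paralogs depend on the scaling. MRPS12, a protein of the decoding centre, was higher in DBTRG-05MG with overlap between the lines (0.60 ± 0.15, SE, limma adjusted p = 0.00852), and this call was also lost with median centring.

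By origin and subunit, the 30 large-subunit members with a bacterial counterpart summed to 1494, 1602, 1418, 1376 and 1335 FPKM across DBTRG-05MG and 1406, 1454, 1340, 1096 and 1150 FPKM in U87. The 19 large-subunit members particular to mitochondria summed to 837, 890, 835, 800 and 761 FPKM across DBTRG-05MG and 832, 881, 814, 807 and 692 FPKM in U87. The 10 small-subunit members particular to mitochondria summed to 296, 309, 341, 300 and 326 FPKM across DBTRG-05MG and 273, 305, 262, 191 and 232 FPKM in U87. The 15 tested small-subunit members with a bacterial counterpart, without MRPS24, summed to 550, 551, 570, 539 and 577 FPKM across DBTRG-05MG libraries. In U87 they summed to 529, 558, 482, 412 and 413 FPKM. In U87 the sum was lowest at 24 h in 3 classes and at 48 h in the mitochondria-specific large-subunit class, and differences between classes were not tested. Against backgrounds of 35.2% higher and 19.7% lower, line calls were 11 higher and 3 lower of 30, 7 higher and 2 lower of 19, 5 higher and 0 lower of 10 in these classes, and 5 higher and 1 lower among the 15 tested small-subunit members with a bacterial counterpart. MRPS18A and MRPS18B were placed in the classes particular to mitochondria, although they are paralogs of MRPS18C.

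Genes that work with the mitoribosome were read beside the members. None of the 8 other mitoribosomal proteins, 18 mitochondrial translation factors, 26 assembly and rRNA modification factors or 20 mitochondrial aminoacyl-tRNA synthetases was called at 48 h or for the common trend, where no gene of the table was. At 48 h in U87, 18 of 18 translation factors and 22 of 26 assembly factors were below 0 h, with medians of -0.43 and -0.42, where 7842 of 12352 genes were below with a median of -0.15. In DBTRG-05MG 8 of 18 and 12 of 26 were below, with medians of 0.11 and 0.02, where 5896 of 12352 genes were below with a median of 0.02. ICT1 (MRPL58), a peptidyl-tRNA hydrolase built into the large subunit, had 48.6, 59.7, 61.6, 45.0 and 38.6 FPKM across DBTRG-05MG and 43.7, 53.6, 40.2, 30.5 and 33.1 FPKM in U87. MRP63 (MRPL57) had 16.01, 15.5, 12.0, 12.3 and 12.8 FPKM across DBTRG-05MG and 9.85, 10.0, 8.75, 11.6 and 9.88 FPKM in U87.

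The cytosolic ribosomal proteins are given for comparison. Of 77 tested, 2 were higher and 39 lower in DBTRG-05MG, with a median difference of -0.52, where all genes had 35.2% higher, 19.7% lower and a median of 0.18. The 75 mitochondrial members had 28 higher and 6 lower and a median of 0.23, a split that became 14 higher and 19 lower with median centring. At 48 h their median change was 0.44 in DBTRG-05MG and 0.13 in U87, while that of the mitochondrial members was -0.0037 and -0.29. The 12 cell division genes had a median change at 48 h of -2.07 in DBTRG-05MG and -1.21 in U87. None of these lists had a member called at 48 h, and the differences between lists were not tested.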

How the data were processed

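Libraries were made from poly(A) RNA captured on oligo(dT) beads and primed with random hexamers, per the labels' protocols. The free-text description of all 10 samples names DBTRG, while their cell line label and treatment protocol assign 5 to U87; the cell line label was followed. The authors deposited 1 table with a value per gene symbol and library, taken as FPKM from its values, since no header names the unit. HISAT, Bowtie2, RSEM and the hg38 build are named in the submitters' processing notes, without versions or roles. The table writes 0.002 in place of 0, and such entries were set to 0. The labels give 1 mM and the 5 times used here, while the series text gives another unit and a longer treatment. No table of counts was used, so relative depth was read from the spacing of low values, and no interval for counting error is given.

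The 12352 genes averaging 1 FPKM or more entered limma 3.58.1 (R 4.3.3) as log2(FPKM + 1) (moderated variance with a mean trend, two-sided, Benjamini-Hochberg over all genes tested, threshold 0.05). FPKM were used as the authors deposited them. Fold changes on this scale understate the change of low genes. Models were line and time as a factor, line and order of time, and their product for different trends. With 1 library per line and time, the lines are the only repeat of a time, and no source names separate cultures. Named members were the 5 highest and lowest changes at 48 h, up to 6 per direction of each other comparison, the 3 highest and lowest levels, and a fixed few. The members and gene lists were chosen with earlier results of these data known. The method was tested on simulated data. Positions come from GENCODE 29 (GRCh38). Matched by GENCODE symbol, exons of 5 members overlap, on the same strand, exons of another gene in the table, and those of 22 on the opposite strand. Genes held under an older symbol, such as TWNK (C10orf2), were missed, so the counts are minimum values. MRPS17 shares 112 exonic bases on the same strand with NIPSNAP2, a symbol not in the table. Counting symbols not in the table as well, and either strand, exons of 41 of 76 members overlap those of another gene. The counting is not stated to use strand, so the values of overlapping members are uncertain. Figures used Python 3.11.15 and matplotlib 3.10.9.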

Additional observations from a re-analysis of the deposited data

Results flagged for a closer look

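In 3 members every later DBTRG-05MG library was above the 0 h library of its line and every later U87 library was below its own, a pattern that 3.24% of all genes tested showed. The test of the difference in trend did not pass over all genes for any of them. MRPL24, a large-subunit protein with a bacterial counterpart, had 57.9, 50.2, 44.1 and 50.005 FPKM at 6, 12, 24 and 48 h in DBTRG-05MG, with 40.6 FPKM at 0 h, and 47.0, 41.3, 35.9 and 34.2 FPKM in U87, with 58.2 FPKM at 0 h. Its trend difference was 0.208 log2 per step (limma adjusted p = 0.352). MRPL52, particular to mitochondria, had 25.5, 26.8, 27.2 and 33.1 FPKM in DBTRG-05MG, with 21.6 FPKM at 0 h, and 34.4, 34.9, 25.1 and 39.1 FPKM in U87, with 45.5 FPKM at 0 h. Its trend difference was 0.215 log2 per step (limma adjusted p = 0.402). MRPS26 had 31.7, 42.9, 35.6 and 40.8 FPKM in DBTRG-05MG, with 28.9 FPKM at 0 h, and 16.1, 18.3, 11.6 and 18.1 FPKM in U87, with 18.4 FPKM at 0 h. Its trend difference was 0.161 log2 per step (limma adjusted p = 0.510). Each pattern rests on the single 0 h library of a line.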

How the results depend on the processing

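The counts of members called at 6, 12, 24 and 48 h and for different trends were 0 in every alternative run, with either pseudocount, filter, scaling or variance setting, at an adjusted p threshold of 0.1, and without each library in turn. With hours as the number in place of the order of times, the common trend called 1 member, MRPL39. At a threshold of 0.1 that fit also had MRPS30, MRPL11 and MRPS2 lower (limma adjusted p = 0.0792, 0.0909 and 0.0956). The share of all genes at that threshold is not given here. The count of members higher in DBTRG-05MG was 28 and became 14 with median centring; it was 22 to 26 without 1 library. The count lower in DBTRG-05MG was 6 and became 19 with median centring, 12 with upper quartile scaling, and 6 to 10 without 1 library, with 10 when the 24 h library of either line was left out. Without the replicate block, that is with the 5 times not paired, 29 members were higher and 7 lower, and the calls of MRPL1 and MRPL39 were lost (adjusted p = 0.0520 and 0.0732). Leaving out a library ended 5 or 6 of the 34 line calls, median centring 14 and upper quartile scaling 7. The cause was not tested. No member that was called changed sign. Precision is limited by 1 library per line and time.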
